A study of Mus musculus with 20 samples.

Results

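Meiotic arrest and gap junction genes are the 8 genes Nppc, Npr2, Gja1, Gja4, Gjc1, Gpr3, Pde3a and Pde5a, which were chosen by name and found as 8 of the 54838 genes listed for each ovary. Their counts were compared in whole ovaries of 20 female mice from 2 lines, with 5 animals each in ctrl estrus, FL1 estrus, ctrl diestrus and FL1 diestrus. The line FL1 has long been bred for large litters, and ctrl, from the same outbred base, was kept without selection. All animals were labelled as 77 days old, and the stage was determined in each animal before sampling. The labels name no transgene or induced deletion, and the paper describes FL1 as not being a transgenic or knockout model. Both lines are outbred stocks, the loci that differ between them were not measured here, and each library is 1 animal.

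The fully grown oocyte of an antral follicle stays in meiotic arrest as long as its cAMP is high. GPR3 in the oocyte membrane keeps adenylyl cyclase active, and PDE3A is the oocyte phosphodiesterase that breaks cAMP down. Granulosa cells of the follicle wall secrete C-type natriuretic peptide, encoded by Nppc, which acts on the receptor guanylyl cyclase NPR2 of granulosa and cumulus cells. The resulting cGMP passes through gap junctions into the oocyte and inhibits PDE3A, while PDE5A breaks cGMP down in the somatic cells. Connexin 43 (Gja1) and connexin 45 (Gjc1) form channels between somatic cells, and connexin 37 (Gja4) forms the channels between cumulus cells and oocyte. The LH surge lowers the peptide and closes the channels, after which meiosis resumes. In the paper's sampling the oviduct was cut away, and in estrus the cumulus oocyte complexes were collected from it. Ovulated oocytes and their cumulus cells were therefore not part of the estrus ovary samples.

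Of the 8 genes only Gja1 passed the test in any comparison, by its lower level in estrus than in diestrus in FL1. To show the gene on the genome, the 250 bases before its start are given, from RefSeq for GRCm38.p6 at chr10:56377050-56377299 on the plus strand. Capitals mark an AP-1 site (TGANTCA, here TGAGTCA) at -19 to -13 and the core of a cAMP response element (TGACG) at -201 to -197 and, on the opposite strand, at -159 to -155, counted back from the first base of the transcript.
Gja1 promoter: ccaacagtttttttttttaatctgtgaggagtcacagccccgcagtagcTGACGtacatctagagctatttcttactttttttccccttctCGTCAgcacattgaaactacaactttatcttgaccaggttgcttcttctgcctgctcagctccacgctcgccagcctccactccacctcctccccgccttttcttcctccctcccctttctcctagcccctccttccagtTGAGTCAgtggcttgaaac
Both strands were searched. TGANTCA is held by 6.749% of 32851 promoter windows of the same length and TGACG by 17.77%. The table had such windows for 6 of the 8 genes (Nppc, Npr2, Pde5a, Gpr3, Gja4 and Gja1). Among these 6, TGANTCA is in the window of Gja1 only and TGACG in those of Gja1, Gja4 and Gpr3, while the full element TGACGTCA (1.546% of windows) is in none. These matches describe the sequence and are no measurement of a factor at it.

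In GRCm38, Gja1 (ENSMUSG00000050953) lies at chr10:56377330-56402513, Gja4 (ENSMUSG00000050234) at chr4:127311421-127314039 and Gjc1 (ENSMUSG00000034520) at chr11:102799579-102819700. Nppc (ENSMUSG00000026241) lies at chr1:86666291-86670571, Npr2 (ENSMUSG00000028469) at chr4:43631935-43651244 and Pde5a (ENSMUSG00000053965) at chr3:122728947-122859374. Gpr3 (ENSMUSG00000049649) lies at chr4:133209340-133212536 and Pde3a (ENSMUSG00000041741) at chr6:141249269-141507448. Reads gather at the 3′ end of transcripts, and no other annotated gene overlaps the last 500 bases of any of the 8 genes. Further upstream, Npr2, Pde5a, Gpr3 and Pde3a overlap a gene on the opposite strand, Pde3a also overlaps 2 genes on its own strand, and the strand setting of the counting is not given in the sources used here.

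Depth was between 5991223 and 10352718 counts per library. Levels are given as CPM, counts scaled to a common library size after TMM normalization over all 20 libraries. The library of ctrl estrus replicate 5 stood apart, with a median correlation of log2 CPM of 0.938 to the other libraries of its group, whereas all others had between 0.955 and 0.973. It had the lowest summed granulosa markers of all libraries (1988 CPM, against 3091 to 4367 CPM in the other ctrl estrus libraries) and the highest summed luteal markers of ctrl estrus (44317 CPM, against 18536 to 34666 CPM). Results that rest on it are given with and without it. Of the markers that define the tissue, those of oocytes and luteal cells were all detected in most libraries, but the granulosa marker Amh was at 0 in 11 libraries and at or below 3 counts in 19, and the theca marker Insl3 was at 0 in 17. Oviduct markers summed to 5.86 CPM at most.

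**Figure D1:**
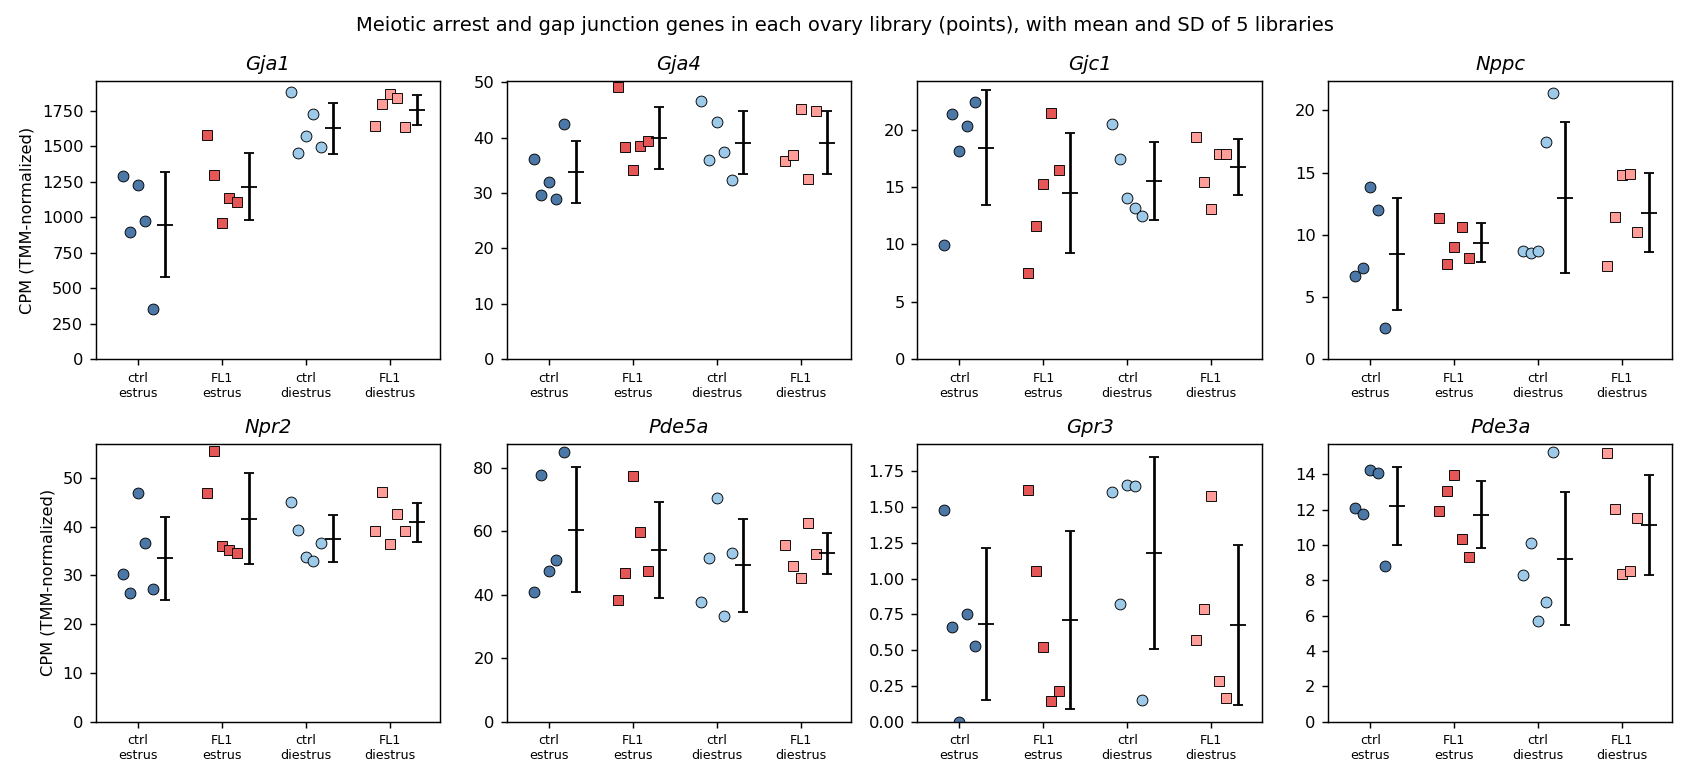
CPM of the 8 genes (y axis, from 0) in each of the 20 libraries (points) by line and stage, with mean and SD of 5 libraries beside them. Gja1 sits between 1455 and 1884 CPM in all 10 diestrus libraries, and ctrl estrus replicate 5 is its lowest point at 353 CPM, while the groups of the other genes overlap.

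Gja1, which encodes connexin 43 of channels between somatic cells, was weaker expressed in estrus than in diestrus of whole ovaries. Its levels were 1292, 894, 1227, 973 and 353 CPM in ctrl estrus and 1884, 1455, 1571, 1730 and 1493 CPM in ctrl diestrus. In FL1 they were 1581, 1296, 962, 1134 and 1106 CPM in estrus and 1645, 1798, 1866, 1838 and 1636 CPM in diestrus. Within each line every estrus library was below every diestrus library. Mean levels rose in the order ctrl estrus (948 ± 372 CPM, SD, n = 5), FL1 estrus (1216 ± 236 CPM), ctrl diestrus (1626 ± 179 CPM) and FL1 diestrus (1757 ± 109 CPM). Neighbours in that order overlapped in each case.

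In FL1 the Gja1 level in estrus was 0.692 times that in diestrus (log2FC -0.53, SE 0.12, edgeR adjusted p = 0.00501, 95% interval of the log2FC -0.78 to -0.29). This call held without each of the 10 libraries in turn (log2FC -0.64 to -0.46). It was lost in 1 fit of all 20 libraries (log2FC -0.53, adjusted p = 0.115), where the spread is shared with ctrl estrus, and it passed in the same fit without ctrl estrus replicate 5 (adjusted p = 0.00529). In ctrl the level in estrus was 0.581 times that in diestrus (log2FC -0.78, SE 0.26, 95% interval -1.34 to -0.22), with an unadjusted p of 0.00956 and an edgeR adjusted p of 0.140. Without ctrl estrus replicate 5 the ctrl difference passed the edgeR test at a smaller size (log2FC -0.57, adjusted p = 0.0320). DESeq2 on all 10 ctrl libraries passed it as well (log2FC -0.79, adjusted p = 0.0338). The adjusted p for ctrl ranged from 0.00902 to 0.264 over all settings tried. An exact two-sided permutation test on CPM gave p = 0.00794 in each line, the smallest p that 5 against 5 libraries allow. The difference between the 2 stage effects was 0.25 on the log2 scale (SE 0.30, 95% interval -0.37 to 0.87, edgeR adjusted p = 0.798), so that the data do not show a stage effect that differs between the lines.

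Between the lines, Gja1 did not differ beyond the spread. In estrus the FL1 level was 1.28 times the ctrl level (log2FC 0.36, SE 0.26, edgeR adjusted p = 0.556), and without ctrl estrus replicate 5 the log2FC was 0.15 (adjusted p = 0.664). In diestrus it was 1.08 times the ctrl level (log2FC 0.11, SE 0.09, adjusted p = 0.595), with an interval from 0.941 to 1.24 times.

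Gja1 was also set against summed markers of cell types. The 12 granulosa markers summed to 1988 to 4367 CPM in ctrl estrus, 3555 to 5704 CPM in FL1 estrus, 3546 to 5320 CPM in ctrl diestrus and 3863 to 5676 CPM in FL1 diestrus, with overlap between the stages in both lines. Set against this sum, Gja1 came to 25.9% ± 5.23 in ctrl estrus and 26.3% ± 2.23 in FL1 estrus, and to 38.7% ± 4.17 in ctrl diestrus and 36.6% ± 5.04 in FL1 diestrus (SD, n = 5). The stages did not overlap in either line (exact permutation test, two-sided, p = 0.00794, adjusted p = 0.0317 over 8 tests of 2 marker sums). This ratio was chosen after the Gja1 values were seen. Gja1 CPM already separated the stages in the same libraries, so that the p of the ratio is no separate support. The 10 luteal markers summed to 18536 to 44317 CPM in ctrl estrus and 20518 to 39545 CPM in FL1 estrus, against 31975 to 55655 CPM in ctrl diestrus and 40482 to 52114 CPM in FL1 diestrus. Over the luteal sum, Gja1 overlapped between the stages (exact permutation p = 0.730 in ctrl and 0.595 in FL1). Over the sum of the 12 endothelial markers, which was not tested, Gja1 came to 235% ± 104 in ctrl estrus and 352% ± 77.3 in ctrl diestrus, but to 356% ± 103 in FL1 estrus and 326% ± 39.2 in FL1 diestrus. The mean was thus lower in estrus in ctrl and higher in FL1, and the stages overlapped in both lines. The part of any cell type in the Gja1 difference was not tested, and in whole ovaries fewer cells of a type and less RNA per cell cannot be told apart.

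**Figure D2:**
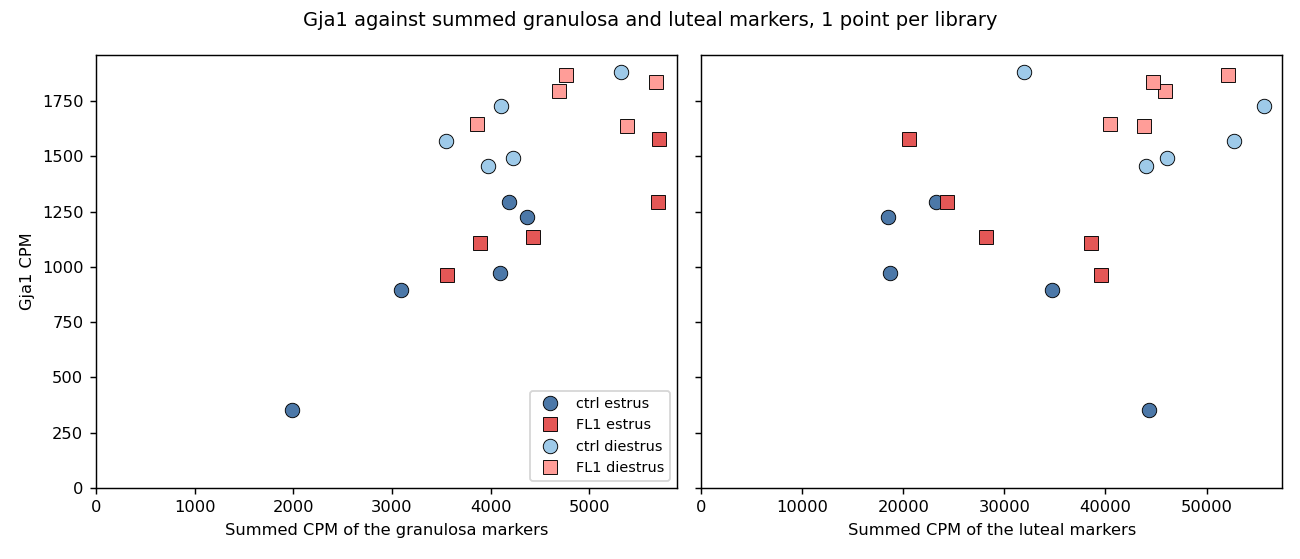
Gja1 CPM (y axis) against the summed CPM of the 12 granulosa markers (left) and of the 10 luteal markers (right), 1 point per library, circles for ctrl and squares for FL1. At like granulosa sums the diestrus libraries (pale) lie above the estrus libraries, and the lowest point is ctrl estrus replicate 5 with 353 CPM of Gja1 at a granulosa sum of 1988 CPM. The ratio of Gja1 to the luteal sum overlapped between the stages in both lines.

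Gja4, which encodes connexin 37 of the oocyte channels and is also made in endothelium, had overlapping levels in all 4 groups. It measured 36.1, 29.7, 31.9, 29.0 and 42.5 CPM in ctrl estrus and 49.2, 38.3, 34.2, 38.5 and 39.4 CPM in FL1 estrus. In diestrus it measured 46.6, 35.9, 42.9, 37.4 and 32.3 CPM in ctrl and 35.9, 36.8, 45.1, 32.5 and 44.9 CPM in FL1. The highest library was FL1 estrus replicate 1 and the lowest ctrl estrus replicate 4. The FL1 level was 1.18 times the ctrl level in estrus (interval 0.96 to 1.45 times, edgeR adjusted p = 0.435), and without ctrl estrus replicate 5, which had the highest Gja4 of its group, the log2FC was 0.34 (adjusted p = 0.186). In diestrus it was 0.996 times the ctrl level (0.825 to 1.20 times, adjusted p = 0.988). Estrus against diestrus gave a log2FC of -0.21 (SE 0.14, adjusted p = 0.532) in ctrl and of 0.03 (SE 0.12, adjusted p = 0.896) in FL1.

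Gjc1, which encodes connexin 45, known from smooth muscle and the vessel wall as well as from granulosa cells, had means of 18.4 ± 5.00 CPM in ctrl estrus, 14.5 ± 5.25 CPM in FL1 estrus, 15.5 ± 3.38 CPM in ctrl diestrus and 16.7 ± 2.47 CPM in FL1 diestrus. Single libraries ranged from 7.51 CPM (51 counts, FL1 estrus replicate 1) to 22.4 CPM (127 counts, ctrl estrus replicate 5). In ctrl estrus, 4 libraries lay between 18.2 and 22.4 CPM and replicate 1 at 9.94 CPM. The FL1 level was 0.786 times the ctrl level in estrus (interval 0.528 to 1.17 times, edgeR adjusted p = 0.580) and 1.07 times in diestrus (0.831 to 1.38 times, adjusted p = 0.828).

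Nppc, the gene of the arresting peptide, was detected at 14 to 139 counts per library. It measured 6.71, 7.30, 13.9, 12.0 and 2.47 CPM in ctrl estrus and 11.3, 7.67, 9.03, 10.7 and 8.14 CPM in FL1 estrus. In diestrus it measured 8.70, 8.50, 8.73, 17.5 and 21.4 CPM in ctrl and 7.46, 11.4, 14.8, 14.9 and 10.2 CPM in FL1. The lowest value was again ctrl estrus replicate 5, while in ctrl diestrus 3 libraries lay close together and the other two were the highest of all 20. Estrus was at 0.664 times diestrus in ctrl (log2FC -0.59, SE 0.40, interval of the fold 0.366 to 1.21, edgeR adjusted p = 0.541) and at 0.795 times in FL1 (log2FC -0.33, SE 0.21, 0.585 to 1.08, adjusted p = 0.307). Without ctrl estrus replicate 5 the ctrl log2FC was -0.37 (adjusted p = 0.636). Between the lines the log2FC was 0.12 (SE 0.34, adjusted p = 0.900) in estrus and -0.13 (SE 0.29, adjusted p = 0.868) in diestrus. The estrus value changed its sign without ctrl estrus replicate 5 (log2FC -0.10).

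Npr2, the receptor that makes cGMP, had 154 to 476 counts per library. Its levels were 30.2, 26.4, 46.9, 36.7 and 27.1 CPM in ctrl estrus, 47.0, 55.5, 36.0, 35.2 and 34.6 CPM in FL1 estrus, 45.0, 39.2, 33.9, 33.0 and 36.7 CPM in ctrl diestrus and 39.2, 47.1, 36.4, 42.6 and 39.1 CPM in FL1 diestrus. All groups overlapped, and the spread was widest in estrus. FL1 was at 1.24 times ctrl in estrus (interval 0.942 to 1.62 times, edgeR adjusted p = 0.448) and at 1.09 times in diestrus (0.919 to 1.28 times, adjusted p = 0.647). The stage difference was -0.17 (SE 0.17, adjusted p = 0.719) in ctrl and 0.02 (SE 0.14, adjusted p = 0.939) in FL1 on the log2 scale.

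Pde5a, the cGMP phosphodiesterase of somatic cells, spread over a 2-fold range or more within ctrl estrus, FL1 estrus and ctrl diestrus. Its lowest, median and highest values were 40.8, 50.9 and 84.9 CPM in ctrl estrus, 38.4, 47.4 and 77.3 CPM in FL1 estrus, 33.3, 51.4 and 70.3 CPM in ctrl diestrus and 45.3, 52.7 and 62.4 CPM in FL1 diestrus. The highest of all 20 libraries was ctrl estrus replicate 5, without which the log2FC was 0.0010 between the lines in estrus and 0.13 between the stages in ctrl. The FL1 level was 0.895 times the ctrl level in estrus (interval 0.646 to 1.24 times, edgeR adjusted p = 0.787) and 1.08 times in diestrus (0.837 to 1.39 times, adjusted p = 0.806). Estrus against diestrus gave a log2FC of 0.29 (SE 0.23, adjusted p = 0.627) in ctrl and of 0.03 (SE 0.15, adjusted p = 0.937) in FL1.

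Pde3a, the oocyte phosphodiesterase that cGMP inhibits, had 38 to 149 counts per library. Its levels were 12.1, 11.8, 14.3, 14.1 and 8.81 CPM in ctrl estrus, 11.9, 13.1, 14.0, 10.4 and 9.32 CPM in FL1 estrus, 8.32, 10.1, 5.72, 6.76 and 15.3 CPM in ctrl diestrus and 15.2, 12.1, 8.36, 8.51 and 11.5 CPM in FL1 diestrus. In ctrl diestrus, 4 of the 5 libraries were below 10.2 CPM and replicate 5 was the highest of all 20. Estrus was at 1.32 times diestrus in ctrl (log2FC 0.40, SE 0.26, interval of the fold 0.899 to 1.94, edgeR adjusted p = 0.512) and at 1.05 times in FL1 (log2FC 0.07, SE 0.20, adjusted p = 0.847). Between the lines the log2FC was -0.06 (SE 0.19, adjusted p = 0.911) in estrus and 0.27 (SE 0.26, adjusted p = 0.659) in diestrus. The oocyte markers, whose sum lay between 264 and 927 CPM over all libraries, overlapped between the groups as well.

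Gpr3, the receptor that keeps oocyte cAMP high, was at the edge of detection. Its counts were 11, 4, 0, 8 and 3 in ctrl estrus, 11, 7, 5, 1 and 2 in FL1 estrus, 17, 6, 11, 10 and 1 in ctrl diestrus and 4, 6, 10, 2 and 1 in FL1 diestrus. A total of 2, 2, 1 and 2 libraries of these groups had 3 counts or fewer, a number that cannot be told from 0 by counting error. The gene did not pass the filter on low counts in any comparison of 2 groups. Means were 0.685 ± 0.531, 0.712 ± 0.621, 1.18 ± 0.672 and 0.678 ± 0.559 CPM in the same order, and all groups overlapped. The smallest exact two-sided permutation p was 0.222, for FL1 against ctrl in diestrus. A line or stage difference of Gpr3 was not detectable at this depth, and its interaction value of 0.80 on the log2 scale had an interval from -1.33 to 2.93.

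**Figure D3:**
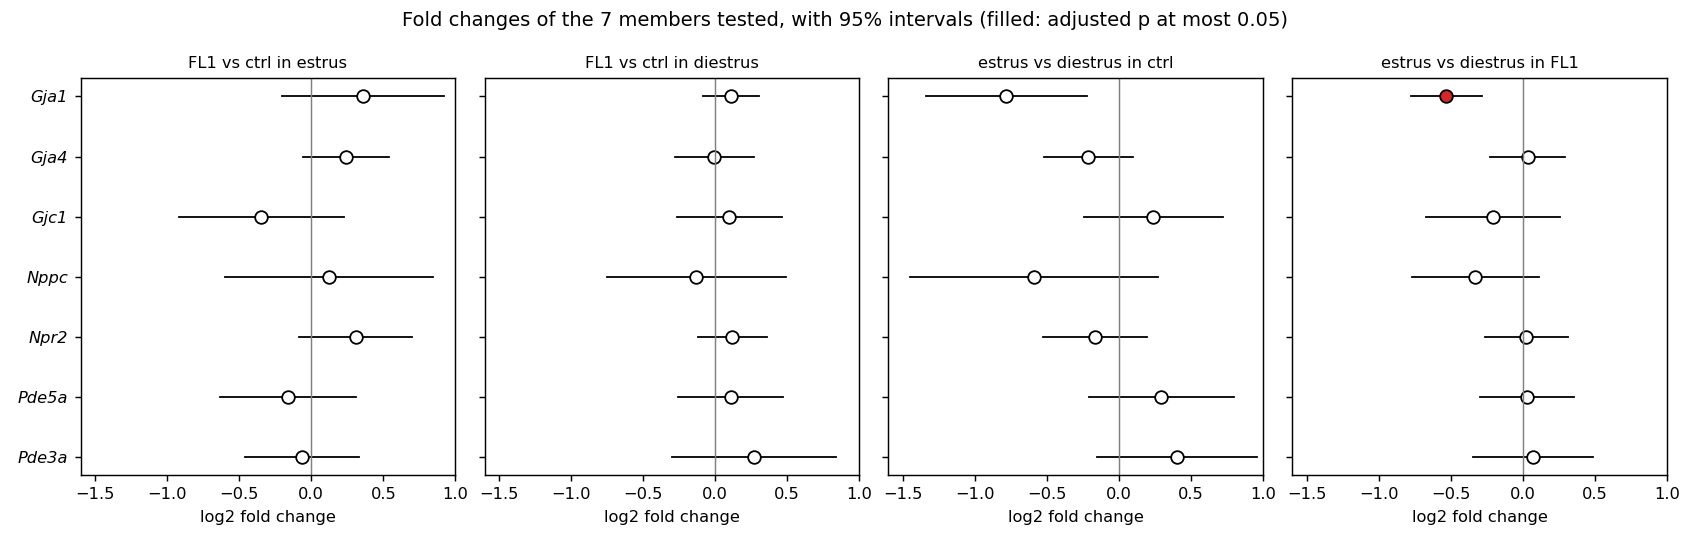
Log2 fold changes (x axis) of the 7 genes that passed the filter on low counts, with 95% intervals from edgeR, in the 4 comparisons. The only filled point, an adjusted p of at most 0.05, is Gja1 in estrus against diestrus in FL1 at -0.53, and the widest interval is that of Nppc between the stages in ctrl (-1.45 to 0.27).

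Over the 4 comparisons, 7 of the 8 genes were tested each time. For FL1 against ctrl in estrus, 0 of 7 passed the edgeR test, against 2.33% of all genes tested, and 0 of 7 had groups without overlap, against 4.88% of all genes. In diestrus, 0 of 7 passed, against 4.11%, and 0 of 7 were without overlap, against 5.45%. In neither stage did any of the 7 reach an unadjusted p of 0.05, and DESeq2 and limma-voom also called 0. For estrus against diestrus in ctrl, 0 of 7 passed, against 2.85%, with 1 (Gja1) at an unadjusted p under 0.05, 1 (Gja1) called by DESeq2 and 0 by limma-voom. Gja1 was also the 1 of 7 without overlap, against 4.51% of all genes. In FL1, 1 of 7 passed, against 15.9%, and 1 of 7 was without overlap, against 12.2%, both being Gja1. For the line-by-stage interaction 0 of 8 passed, against 0.0565% of all genes, with 0 of 8 at an unadjusted p under 0.05 and 0 by DESeq2 and limma-voom. A single call among 7 is close to the share over all genes in the FL1 stage comparison. The median log2FC of the 7 genes was 0.12 and 0.11 for FL1 against ctrl in estrus and diestrus, and -0.17 and 0.02 for estrus against diestrus in ctrl and FL1, beside medians within 0.01 of 0 over all genes. Both line comparisons bound the 7 genes, since the whole 95% interval of each stayed within a 2-fold change in either direction for 7 of 7 genes in estrus and in diestrus. The same held for 5 of 7 in the ctrl stage comparison, where Nppc and Gja1 reached further, and for 7 of 7 in that of FL1.

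Within the natriuretic peptide and cGMP list, the clearance receptor Npr3, which binds natriuretic peptides and removes them without making cGMP, was the gene that passed in both lines. It measured 12.6, 11.6, 14.1, 25.1 and 13.7 CPM in ctrl estrus and 4.54, 2.88, 2.26, 3.46 and 7.70 CPM in ctrl diestrus. In FL1 it measured 9.13, 18.2, 14.1, 18.9 and 16.0 CPM in estrus and 4.02, 5.24, 5.05, 5.53 and 6.01 CPM in diestrus. Every estrus library was above every diestrus library in both lines. Npr3 rose in estrus with a log2FC of 1.89 in ctrl (SE 0.33, edgeR adjusted p = 0.00862) and of 1.56 in FL1 (SE 0.21, adjusted p = 0.000112), and both calls held without each library in turn and in all other settings. The other tested genes of this list, 14 of 15 in ctrl and 15 of 16 in FL1, did not pass, and 0 of 15 passed between the lines in either stage, with 2 at an unadjusted p under 0.05 in each. The smallest p between the lines was that of Pde6d in estrus (log2FC 0.38, adjusted p = 0.266), a phosphodiesterase subunit, and that of Furin in diestrus (log2FC 0.25, adjusted p = 0.0999), the protease that trims the peptide's precursor.

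**Figure D4:**
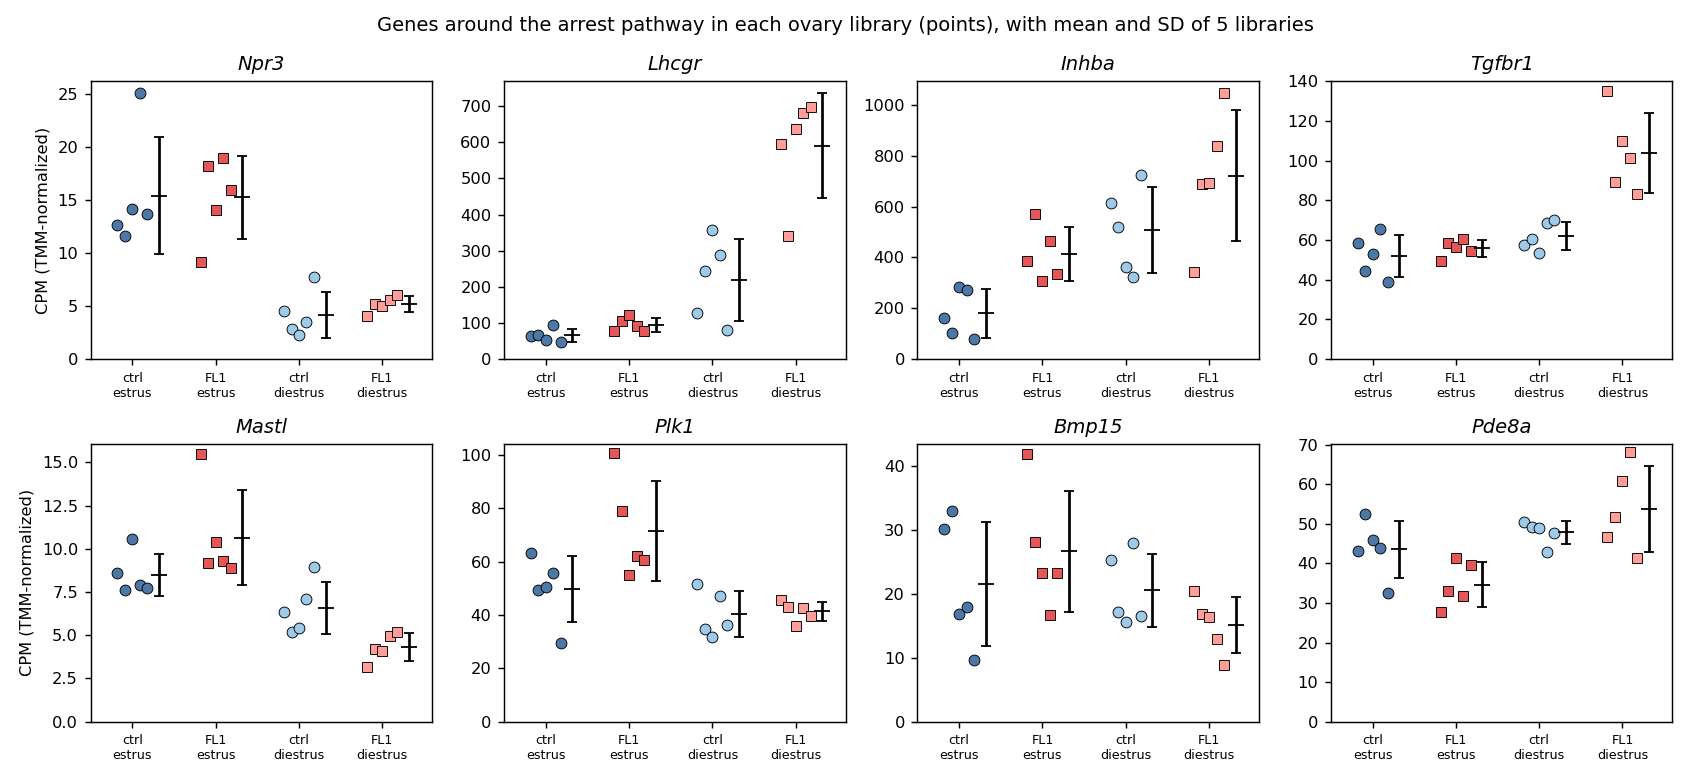
CPM of 8 genes around the arrest pathway (y axis, from 0) in each library (points) by line and stage, with mean and SD of 5 libraries. Npr3 lies at 9.13 CPM or more in all estrus libraries and at 7.70 CPM or less in all diestrus libraries, and Tgfbr1 is higher in all FL1 diestrus libraries (83.3 to 135 CPM) than in any other library.

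In the list of cAMP and phosphodiesterase genes, 30 of 36 were tested. Between the lines 0 passed in estrus and 0 in diestrus, with 9 and 2 at an unadjusted p under 0.05. Over all genes, 2121 of 13374 in estrus and 2351 of 13259 in diestrus were at such a p. Adenylyl cyclase 7 (Adcy7) measured 12.7 ± 2.25 CPM in FL1 estrus and 19.9 ± 3.18 CPM in ctrl estrus (SD, n = 5) without overlap (log2FC -0.65, edgeR adjusted p = 0.0709), and DESeq2 passed it (adjusted p = 0.0230). Over all settings tried the adjusted p of Adcy7 reached 0.164. Adcy6 measured 13.3 ± 2.79 CPM in FL1 diestrus and 20.5 ± 2.80 CPM in ctrl diestrus without overlap (log2FC -0.62, adjusted p = 0.0565), and passed without ctrl diestrus replicate 1 (adjusted p = 0.0489), without FL1 diestrus replicate 2 (adjusted p = 0.0494) and with DESeq2 (adjusted p = 0.0223). Its adjusted p reached 0.116 with 1 library left out and 0.211 over all settings tried. In ctrl, Adcy7 was the only call between the stages (log2FC 0.88 in estrus, adjusted p = 0.0360), and it was lost without any 1 of 7 of the 10 libraries (adjusted p up to 0.0978). In FL1, 7 of 30 passed, beside 15.9% of all genes, of which 3 rose in estrus (Adcy3, Akap1 and Prkar1b) and 4 fell (Pde8a, Adcy9, Gnai1 and Prkaca). Pde8a, a phosphodiesterase specific to cAMP, fell by 0.63 on the log2 scale (SE 0.14, adjusted p = 0.00625), from 53.7 ± 10.8 CPM in diestrus to 34.7 ± 5.68 CPM in estrus, and this held without each library in turn. Adcy3 (log2FC 0.57, adjusted p = 0.0221) lost its call without any 1 of 3 libraries (FL1 diestrus replicates 1 and 2 and FL1 estrus replicate 5), Adcy9 (log2FC -0.49, adjusted p = 0.0215) without FL1 diestrus replicate 3 or 5, and Prkar1b, a regulatory subunit of protein kinase A (log2FC 0.44, adjusted p = 0.0279), without any 1 of 4 libraries, at an adjusted p up to 0.0691.

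Of the 31 gap junction genes, 13 or 14 were tested. Gja1 passed between the stages in FL1 and not between the lines. Between the lines in diestrus, the actin regulator Daam1 and N-cadherin (Cdh2), an adhesion protein, passed. Daam1 was stronger expressed in FL1 diestrus (58.8 ± 9.75 CPM) than in ctrl diestrus (38.6 ± 3.56 CPM), with a log2FC of 0.61 (SE 0.12, edgeR adjusted p = 0.00930) that held without each library. Cdh2 was weaker expressed (16.5 ± 0.872 against 26.0 ± 6.85 CPM, log2FC -0.66, adjusted p = 0.0327), and its call was lost without any 1 of 6 libraries (adjusted p up to 0.0783). Daam1 was also lower in estrus than in diestrus in FL1 (log2FC -0.33, adjusted p = 0.0481), a call lost without any 1 of 7 libraries (adjusted p up to 0.134). In estrus 0 of 13 passed between the lines by edgeR, with 2 at an unadjusted p under 0.05.

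The LH to EGF receptor list holds the surge receptor, the EGF-like factors and their kinases. Lhcgr, the LH receptor, fell in estrus by 1.75 on the log2 scale in ctrl (edgeR adjusted p = 0.0161) and by 2.64 in FL1 (adjusted p = 6.3e-08). In diestrus it was higher in FL1 (591 ± 145 CPM) than in ctrl (220 ± 114 CPM), with a log2FC of 1.43 (adjusted p = 0.0209), and this call was lost without FL1 diestrus replicate 3 (adjusted p = 0.0514), 4 (0.0561) or 5 (0.0516). In estrus its log2FC was 0.53 (adjusted p = 0.153), with a pass without ctrl estrus replicate 4 (adjusted p = 0.0424) and an adjusted p up to 0.489 over all settings tried. Dusp6 (log2FC 0.56, adjusted p = 0.0446), which dephosphorylates ERK, and Adam17 (log2FC 0.37, adjusted p = 0.0437), which sheds EGF-like factors, rose in FL1 diestrus, but each lost its call without any 1 of 8 or 9 of the 10 libraries. In ctrl the EGF-like factor Hbegf was lower in estrus (log2FC -0.94, adjusted p = 0.0390), and it was lost without any 1 of 7 libraries (adjusted p up to 0.0963). In FL1 the cumulus matrix gene Tnfaip6 rose in estrus (6.92 ± 3.04 against 2.39 ± 1.27 CPM, log2FC 1.55, adjusted p = 0.0168), and Nrip1 (log2FC -0.45, adjusted p = 0.00152), a coregulator needed for ovulation, and the ERK gene Mapk3 (log2FC -0.42, adjusted p = 0.00889) fell. These 3 calls held without each library, while that of Tnfaip6 was lost with all 20 libraries fitted together (adjusted p = 0.0770).

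The oocyte meiotic resumption list had its calls in FL1 between the stages, the comparison that called 15.9% of all genes tested, against 2.33% to 4.11% in the other comparisons of 2 groups. There, 7 of 24 tested genes rose in estrus (Aurkb, Aurkc, Ccnb2, Cdc25b, Cdk1, Mastl and Plk1) and Cnot6l fell, with a list median of 0.44 against 0.01 over all genes. Mastl, the kinase that blocks the phosphatase opposing CDK1, rose from 4.32 ± 0.800 to 10.6 ± 2.75 CPM (log2FC 1.30, SE 0.23, edgeR adjusted p = 0.00103). Plk1, a mitotic and meiotic kinase, rose from 41.3 ± 3.68 to 71.4 ± 18.6 CPM (log2FC 0.79, adjusted p = 0.00155). Cdc25b, the phosphatase that activates CDK1, rose by a log2FC of 0.66 (adjusted p = 0.0169). These 3 held without each library, while Cdc25b lost its call with all 20 libraries fitted together (adjusted p = 0.0807). Aurkc (log2FC 1.39, adjusted p = 0.0329) was lost without any 1 of 5 libraries (adjusted p up to 0.101). Many genes of this list also serve mitosis in dividing cells, and ovulated oocytes were not part of the estrus samples. In ctrl, 0 of 25 passed between the stages, with 1 (Cdc25a, log2FC 0.31, adjusted p = 0.290) at an unadjusted p under 0.05. Between the lines 0 of 24 passed in estrus, with 5 at an unadjusted p under 0.05 and Ccnb2, cyclin B2, at the smallest p (log2FC 0.66, adjusted p = 0.152), and 0 of 25 in diestrus, with 4 at an unadjusted p under 0.05 and Arpp19 at the smallest (log2FC -0.26, adjusted p = 0.0978). The difference between the lines' stage effects did not pass for any of them, Mastl being nearest (0.93, adjusted p = 0.210).

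The list of Nppc regulators, 25 of 25 tested, holds estrogen receptors, activins, TGF-beta and oocyte factors that act on the granulosa gene. In estrus, the estrogen receptor Esr1 was weaker expressed in FL1 (44.5 ± 8.21 CPM) than in ctrl (74.3 ± 15.2 CPM), with a log2FC of -0.74 (SE 0.16, edgeR adjusted p = 0.0263), and Smad4, the shared mediator of TGF-beta signals, was stronger expressed (171 ± 16.7 against 126 ± 13.3 CPM, log2FC 0.44, adjusted p = 0.0412). Esr1 lost its call without any 1 of 6 libraries (adjusted p up to 0.0767) and Smad4 without any 1 of 7 (adjusted p up to 0.112). In diestrus the TGF-beta receptor Tgfbr1 measured 135, 89.4, 110, 101 and 83.3 CPM in FL1 and 57.4, 60.3, 53.3, 68.7 and 70.1 CPM in ctrl. The lines did not overlap (log2FC 0.74, SE 0.13, adjusted p = 0.00487), and the call held without each library. In FL1 Tgfbr1 fell in estrus by 0.90 on the log2 scale (adjusted p = 8.34e-05), while the difference to the ctrl stage effect was -0.65 (adjusted p = 0.177). Inhba, the activin A subunit, fell in estrus by 1.50 in ctrl (adjusted p = 0.0336, lost without any 1 of 5 libraries, adjusted p up to 0.0776) and by 0.81 in FL1 (adjusted p = 0.0204, lost without FL1 diestrus replicate 4 or 5 or FL1 estrus replicate 5, adjusted p up to 0.0611). Between the lines in estrus Inhba measured 413 ± 106 CPM in FL1 and 179 ± 94.7 CPM in ctrl without overlap (log2FC 1.20, adjusted p = 0.0627), and it passed with DESeq2 (adjusted p = 0.0404), with limma-voom (0.0169) and without ctrl estrus replicate 3 (0.0329), 4 (0.0480) or 5 (0.0499). Over all settings tried the adjusted p of Inhba reached 0.158. Tgfb3 rose in ctrl estrus by a log2FC of 0.65 (adjusted p = 0.00824). In FL1, 8 of 25 passed, beside 15.9% of all genes, of which 4 rose in estrus (Bmp15, Igf1, Tgfb3 and Wt1) and 4 fell (Igf1r, Inhba, Smad3 and Tgfbr1). Of these, the IGF1 receptor Igf1r fell by 0.62 (adjusted p = 0.000318), and the oocyte factor Bmp15 rose by 0.81 (adjusted p = 0.0278), a call lost without any 1 of 5 libraries (adjusted p up to 0.0717). Nppc itself did not pass in any of these comparisons.

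**Figure D5:**
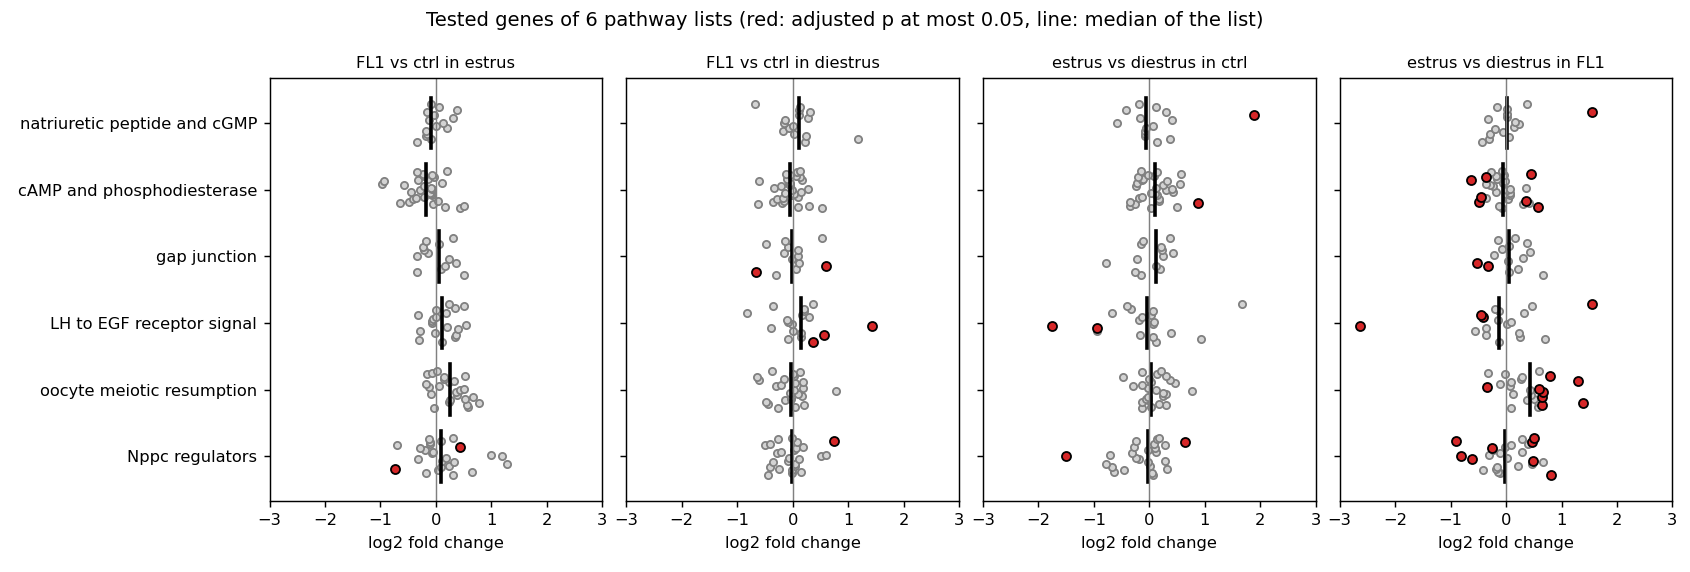
Log2 fold changes (x axis) of the tested genes of 6 pathway lists in the 4 comparisons, 1 point per gene, with a black line at the median of each list and red points for an adjusted p of at most 0.05. Most red points are in estrus against diestrus in FL1, where the meiotic resumption genes have a median of 0.44.

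In the line-by-stage interaction none of the 6 lists had a call by edgeR. The genes nearest were Prkg1, the cGMP-dependent kinase (-1.54, edgeR adjusted p = 0.353), Prkar2a (-0.42, adjusted p = 0.275), Daam1 (-0.45, adjusted p = 0.240) and Rgs2, a brake on G-protein signals (0.87, adjusted p = 0.220), beside Mastl and Tgfbr1. Unadjusted p under 0.05 were found for 2 of 18, 4 of 31, 3 of 14, 3 of 19, 5 of 25 and 5 of 25 tested genes in the order natriuretic peptide, cAMP, gap junction, LH, meiotic resumption and Nppc regulators. Over all genes, 1654 of 14154 were at such a p.

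Markers of other cells of the ovary were counted in the same comparisons. Between the stages in FL1, where 15.9% of all genes passed, 8 of 10 luteal markers passed (7 lower in estrus, among them Lhcgr -2.64, Star -1.56, Prlr -1.40 and Scarb1 -1.18, and Parm1 higher), as did 4 of 11 granulosa markers (Cyp19a1 -1.38, Inhba -0.81, Foxl2 -0.55 and Kctd14 1.02) and 4 of 5 theca markers (Cyp17a1 -3.83, Aldh1a1 -0.57, Mgarp 0.89 and Fbn1 0.44). Of the endothelial markers, from a cell type known to carry Gja4, 6 of 12 fell (Kdr -0.79, Pecam1 -0.75, Tie1 -0.71 and Egfl7 -0.69 among them). Of the smooth muscle and pericyte markers, from cells known to carry Gjc1 and Pde5a, 5 of 12 passed, with Des (1.49), Tagln (0.84), Actg2 (0.69) and Cnn1 (0.53) higher and Kcnj8 lower. Further calls were 6 of 8 surface epithelium markers (Upk1b 1.59, Krt19 1.22, Krt18 0.95 and Lgr5 -0.78 among them), 4 of 5 blood markers (Hbb-bt -1.24, Hbb-bs -1.07, Hba-a1 -0.91 and Alas2 -0.85) and 1 of 17 oocyte markers (Bmp15), beside 0 of 10 macrophage and 0 of 4 fat markers. All values are log2FC of estrus against diestrus. The endothelial sum lay between 305 and 388 CPM in FL1 estrus and between 472 and 598 CPM in FL1 diestrus, against 370 to 575 CPM and 401 to 565 CPM in ctrl. The smooth muscle and pericyte sum lay between 1386 and 1848 CPM in FL1 estrus and 1014 and 1619 CPM in FL1 diestrus, against 1444 to 2099 CPM and 934 to 1581 CPM in ctrl. Gja4, Gjc1 and Pde5a did not pass between the stages in either line.

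In ctrl, where 2.85% of all genes passed between the stages, they differed in 1 of 11 granulosa (Inhba), 2 of 5 theca (Cyp17a1 -5.02 and Mgarp 1.18), 2 of 10 luteal (Lhcgr and Parm1, 0.83), 2 of 13 smooth muscle and pericyte (Tagln 1.13 and Myh11 0.64) and 1 of 10 macrophage markers (Cd68 0.82), and in 0 of the tested oocyte, endothelium, fat, blood and surface epithelium markers. Between the lines in estrus (2.33% of all genes), Rgs5 of pericytes (-1.41), Lyz2 of macrophages (1.10) and Upk3b of the surface epithelium (0.69) passed. Of the 10 macrophage markers only 2 had a positive log2FC there, and the list median was -0.38. In diestrus (4.11% of all genes) Foxl2 (0.53) and Serpine2 (0.49) of granulosa cells, Lhcgr, Kcnj8 (0.72), Egfl7 (0.65), Lyz2 (1.31), Cd68 (0.79), Hba-a2 (4.77) and Bcl2l10 (-0.94) and Upk1b (-2.33) passed. Here 4 of the 10 macrophage markers had a positive log2FC, with a list median of -0.07. The Foxl2 call held without each library, but the paper's qPCR of Foxl2 in diestrus had the opposite sign. Serpine2 lost its call without any 1 of 8 libraries (edgeR adjusted p up to 0.101). Where a marker list had no call, the gene with the smallest p is named, with its log2FC in brackets as for the calls above. The log2FC is that of FL1 against ctrl between the lines and of estrus against diestrus between the stages. Between the lines in estrus these genes were Zp2 (0.48), Inhba, Aldh1a1 (-0.74), Lhcgr, Cdh5 (-0.41), Plin1 (0.13) and Hba-a2 (3.32), and in diestrus Fbn1 (-0.31) and Cfd (1.55). Between the stages they were Bcl2l10 (-0.29), Cdh5 (-0.19), Cfd (2.47), Hbb-bt (-1.09) and Lgr5 (-1.17) in ctrl and Cd68 (0.44) and Plin1 (0.43) in FL1. The interaction called 0 markers. The nearest by list, with values on the log2 scale, were Bcl2l10 (0.80), Foxl2 (-0.69), Ptch1 (-0.53), Akr1c18 (1.20), Rgs5 (-0.98), Egfl7 (-0.60), Aif1 (-0.73), Retn (-2.24), Hba-a2 (-1.44) and Krt18 (1.12). Of 50 marker calls named by the rule, 16 were lost when some single library was left out. Between the lines these were 1 of 3 in estrus and 6 of 10 in diestrus. Between the stages they were 4 of 8 in ctrl and 5 of 29 in FL1. Cd68 lost its call without any 1 of 9 libraries between the lines in diestrus. Between the stages in ctrl, Cd68 and Parm1 lost theirs without any 1 of 8 libraries and Myh11 without any 1 of 7. The part of the markers in the values of the 8 genes was not tested.

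The genes whose pattern over the 20 libraries was most like that of each of the 8 are given as a description by Pearson's r of log2 CPM among 14153 other genes. Libraries of the same stage and line share their group, so that these points are not independent. For Gja1 they were Arhgef28 (r = 0.949), Car14 (0.943) and Bmp3 (0.934). Nppc went with Pigp (0.823), Zxdb (0.817) and Hnmt (0.804), and Npr2 with Slc38a1 (0.811), Rhd (0.769) and Rnf144b (0.763). Pde5a went with Ppp6r1 (0.784), Plekhg2 (0.782) and Hip1 (0.758), and Pde3a with Prkd3 (0.749), Npm1 (0.744) and CT030155.1 (0.739). For Gja4 they were Cradd (0.803), Ackr3 (0.760) and 2810408I11Rik (0.715), and for Gjc1 Nes (0.751), Dner (0.747) and Notch3 (0.744), of which Notch3 is on the pericyte list. Gpr3, at its low counts, went with Fbxw15 (0.760), Gdap1 (0.737) and Vdac1 (0.730). Among the 8 genes themselves the highest r was 0.713, between Nppc and Gja1, followed by 0.550 between Npr2 and Gja1, and the lowest was -0.612, between Pde5a and Gja1. Ctrl estrus replicate 5 held the lowest Nppc and Gja1 and the highest Pde5a.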

How the data were processed

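Ovaries of 20 mice (5 per line and stage, 1 animal per library) were sequenced with the QuantSeq 3′ mRNA-Seq kit. The authors aligned the trimmed reads with STAR to GRCm38 and deposited raw counts per Ensembl gene, without normalization. The labels also name Cuffdiff. The counting tool is not given in the sources used here. Groups came from titles and characteristics in the labels. The source name reads FL1 for all libraries and was not used.

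Symbols and positions came from GENCODE M21 (GRCm38), which has 54809 of 54838 genes, and 29 stayed under their identifiers. Promoters came from RefSeq (GRCm38.p6). The test was edgeR 4.0.16 quasi-likelihood (R 4.3.3), with TMM, filterByExpr (minimum count 10) and Benjamini-Hochberg adjustment over all genes tested, at a threshold of 0.05, on the 10 libraries of each comparison and on all 20 for the interaction. SEs are the absolute log2FC divided by the root of F. Single values were compared by exact permutation over 252 splits. Log2 CPM used a prior count of 2. Named are the 8 genes, per list and comparison up to 4 calls with the largest log2FC or otherwise the smallest p, and the 3 genes most like each of the 8. A few genes that this rule names are not reported here. The 8 genes and all lists were chosen with earlier results of these data known. The fits were tested on simulated data.

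Alternatives were RLE size factors, filters of at least 1 count in total or 10 in every library, DESeq2 1.42.0, limma-voom (limma 3.58.1), a replicate block, 1 fit of all 20 libraries, each library left out, and, chosen after seeing the data, 1 fit of the 19 libraries without ctrl estrus replicate 5. Intervals are at 95% and a count of 3 was taken as the floor.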

Additional observations from a re-analysis of the deposited data

How the results depend on the processing

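For FL1 against ctrl in either stage and for the interaction, 0 of the 8 genes passed under every alternative. For estrus against diestrus in ctrl, 1 gene (Gja1) passed with DESeq2, in 1 fit of all 20 libraries and in 1 fit of the 19 without ctrl estrus replicate 5, and the count was 0 to 1 when libraries were left out, with 1 only without that library. In FL1 the count of 1 fell to 0 in the fit of all 20 libraries. No called value changed its sign. Signs of values near 0 did change. With limma-voom the log2FC was 0.0052 for Nppc and 0.0170 for Gja4 (FL1 against ctrl in diestrus), and -0.0415 for Npr2 and -0.0030 for Gja4 (stages in FL1). In the fit of 19 libraries Nppc was at -0.0990 between the lines in estrus. Without 1 library each, the log2FC between the lines in estrus ranged from -0.0967 to 0.366 for Nppc, -0.326 to 0.0010 for Pde5a, -0.153 to 0.0104 for Pde3a and -0.0051 to 0.313 for the fat marker Plin1. In diestrus it ranged from -0.252 to 0.125 for Nppc, -0.0015 to 0.270 for Pde5a and -0.0664 to 0.0686 for Gja4. Between the stages in FL1 it ranged from -0.0974 to 0.0826 for Npr2, -0.139 to 0.129 for Pde5a, -0.0153 to 0.214 for Pde3a and -0.0502 to 0.0879 for Gja4, and the interaction of Nppc from -0.0011 to 0.494. The cause was not tested.

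Same-numbered libraries are different animals, and the correlation of their deviations lay between -0.109 and 0.137. Whether same-numbered libraries shared a batch cannot be told from these values. With the replicate block 0, 0, 0, 1 and 0 of the 8 genes passed in the 5 comparisons, as without it. Pde5a changed its sign between the stages in FL1 (-0.0077). Over all genes the block gave 230, 498, 259, 2020 and 12 calls instead of 311, 545, 380, 2123 and 8, and between 1 and 2 of 5 numbers matched best with themselves.

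Counts over all genes were more than 1.5 times the main one for FL1 against ctrl in estrus with DESeq2 (670), all 20 libraries (531), 19 libraries (514) and the filter of 1 count (477). In diestrus this held for DESeq2 (891) and the filter of 1 count (846). Between the stages in ctrl it held for DESeq2 (771), limma-voom (655), all 20 (909) and 19 libraries (980), and for the interaction with DESeq2 (148), limma-voom (31) and the filter of 1 count (17). Leaving out 1 library gave 175 to 418, 349 to 594, 176 to 516, 1582 to 2316 and 0 to 15 calls. Depth limits Gpr3, with at most 17 counts, most.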
